A study of Mus musculus with 58 samples.

Results

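The genes described here are 9 genes of the complement system, measured by RNA sequencing in the injured or sham-operated brain of 58 mice. They are C1qa, C1qb and C1qc (the chains of C1q), C3, C4b, the receptors C3ar1, C5ar1 and Itgam, and the inhibitor Serping1. They were chosen by symbol, and each had a row in the table of 15171 genes. The mice were 3 months old, of both sexes, on the C57BL/6 background, and every mouse carried human APOE3 or APOE4 in place of mouse Apoe on both alleles. Abca1, the transporter that loads lipid onto APOE, was intact (Abca1+/+) or heterozygous (Abca1+/-). Injury (TBI) was a controlled cortical impact on the left parietal cortex, made with a tip of 3.0 mm to a depth of 1.0 mm, while sham mice had the same anesthesia and craniotomy without the impact. Cortex and hippocampus of a 1.5 mm coronal section at the injury site were frozen together 14 days later. The groups held 8 sham and 8 TBI mice in E3/Abca1+/+, 7 and 6 in E3/Abca1+/-, 7 and 7 in E4/Abca1+/+, and 7 and 8 in E4/Abca1+/-. The craniotomy is itself shared by all 58 mice, and no unoperated mice were analysed here, so every change is relative to a craniotomy. The tissue is a mixture of cells, so that fewer cells of a type and less RNA per cell cannot be told apart.

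Complement is a cascade of proteins that tags cells and debris for removal. C1q binds to the target, C1r and C1s cut C4 and C2, and the resulting enzyme cuts C3. C3 fragments on a surface are recognized by complement receptor 3, whose alpha chain is Itgam (CD11b), while the small fragments C3a and C5a signal through C3ar1 and C5ar1. Serping1, the C1 inhibitor, holds C1r and C1s in check. In the brain C1q is known mainly as a product of microglia, whereas C3 and C4 are also made by reactive astrocytes, and the classical cascade is known for tagging synapses for engulfment by microglia.

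Positions are those of GRCm38, the assembly that mm10 is. C1qb, C1qc and C1qa are neighbours on the minus strand of chromosome 4, within 18675 bases (chr4:136880129-136898803). C3 (chr17:57203970-57228136) and C4b (chr17:34728380-34743882) are on chromosome 17, C3ar1 is on chromosome 6 (chr6:122847138-122856161), Serping1 on chromosome 2 (chr2:84765387-84775444), and C5ar1 (chr7:16246743-16259540) and Itgam (chr7:128062640-128118491) are far apart on chromosome 7.

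C4b has a near-identical neighbour, C4a, so their sequences show how far reads can be assigned to one or the other. The aligned transcripts were 96.1% identical, and 35.2% of the 50-base windows and 16.5% of the 100-base windows of the C4b transcript were also in C4a. The stretch of 60 bases in which the transcripts differed most (13 differences, in capitals) is in exon 21 of 41 of C4b, in its coding sequence (chr17:34735430-34735489, minus strand, 5′ to 3′, GENCODE annotation of GRCm38):
C4b: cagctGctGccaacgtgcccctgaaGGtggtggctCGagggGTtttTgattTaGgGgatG
C4a: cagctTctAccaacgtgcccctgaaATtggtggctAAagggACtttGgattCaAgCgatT
Across the mice the value of C4a was 0.921 to 8.52% of that of C4b, and how far reads of one were counted on the other was not tested.

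The promoters of the neighbouring C1q genes are shown because these genes moved together below. RefSeq promoters (GRCm38.p6, 250 bases before to 50 after the start of the gene) were matched for 6 of the 9 genes. C1qb (chr4:136886151-136886450, minus strand) and C1qc (chr4:136892865-136893164, minus strand) are printed 5′ to 3′, with motif matches in capitals:
C1qb: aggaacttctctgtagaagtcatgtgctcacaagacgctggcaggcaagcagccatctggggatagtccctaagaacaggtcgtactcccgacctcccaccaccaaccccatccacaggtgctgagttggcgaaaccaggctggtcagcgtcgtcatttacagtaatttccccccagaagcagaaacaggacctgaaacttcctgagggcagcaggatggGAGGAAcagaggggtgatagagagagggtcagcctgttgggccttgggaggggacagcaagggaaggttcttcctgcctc
C1qc: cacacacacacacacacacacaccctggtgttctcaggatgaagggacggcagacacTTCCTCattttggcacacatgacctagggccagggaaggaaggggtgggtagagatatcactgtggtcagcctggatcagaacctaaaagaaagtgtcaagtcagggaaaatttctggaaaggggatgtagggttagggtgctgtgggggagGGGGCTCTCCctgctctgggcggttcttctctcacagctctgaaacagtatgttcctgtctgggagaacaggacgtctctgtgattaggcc
Letters of 4 motifs were searched on both strands. The core of the myeloid factor PU.1 (GAGGAA) was at -30 to -25 in C1qb and at -193 to -188 in C1qc, where it is on the opposite strand, and Itgam had 3 matches. The NF-kB motif, given here by its name alone, was at -41 to -32 in C1qc and overlapped no other match. No STAT motif (TTCNNNGAA) or interferon-stimulated response element was found in the 6 promoters, and C3, C3ar1 and C5ar1 held no match of the 4. Of 32851 promoters of the same length 28.3% held the PU.1 core, 8.46% the NF-kB motif, 8.30% the STAT motif and 3.44% the interferon-stimulated response element. These matches are letters in a window and were not tested as sites.

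Values are CPM, the reads of a gene scaled to the total reads counted in that mouse. Total counts ranged from 4421308 to 37877346. The median total was 18871445 in Abca1+/- mice (n = 28) and 8350020 in Abca1+/+ mice (n = 30), so a comparison of Abca1 genotypes is also a comparison of depths. In the deepest library a count of 3 is 0.0792 CPM and in the shallowest 0.679 CPM, which is above many sham values of C3 and C5ar1. Abca1 itself was lower in Abca1+/- than in Abca1+/+ sham mice carrying APOE3 (log2 fold change -0.44, edgeR adjusted p = 0.00943), while the value was -0.71 after TBI (adjusted p = 0.117), and with APOE4 -0.35 in sham (0.0800) and -0.19 in injured mice (0.718), none of these past the threshold. The neuron list was at a summed 5500 to 8711 CPM in every mouse, and all 6 genes of the hippocampal list were in the table. A sham mouse, E4/Abca1+/- replicate 2 (male), stood apart from the others of its group: C3 was 33.5 CPM there and 0.384 to 3.24 CPM in the other 6, and the summed list of infiltrating monocytes and border macrophages was 69.0 CPM against 15.1 to 23.5. Several results that rest on it are given with and without it.

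In sham mice C1q was the most abundant product per length, and C3 was read from few counts. Per kilobase of exon, the group means of C1qa were 38.2 to 49.8 CPM, followed in every genotype by C1qc (19.0 to 22.8), C1qb (10.5 to 13.8), C4b (5.70 to 8.11), Itgam (5.39 to 5.92) and Serping1 (3.52 to 3.77). C3ar1 was at 0.501 to 0.746, C5ar1 at 0.151 to 0.181 and C3 at 0.0951 to 1.13, the upper value coming from the group with the sham mouse that stood apart. After TBI the order was the same for the leading 4 genes, and C3 had moved from place 7 to 9 up to place 5 in all 4 genotypes, with group means of 24.0 to 43.4 CPM per kilobase.

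The complement genes were higher 14 days after TBI in every genotype in which they were tested. Among the genes that passed the filter on low counts the change was largest for C3 and smallest for Itgam in each genotype, and C1qa, C1qb, C1qc, C3, C4b and C3ar1 were higher in each of the 29 injured mice than in any of the 29 sham mice of any genotype. The question of each comparison was what the injury changed within a genotype. All 8 genes tested were called higher in E3/Abca1+/+ (12.3% of 14093 genes were called higher), all 9 in E3/Abca1+/- (13.4% of 15026), all 8 tested in E4/Abca1+/+ (8.82% of 14041) and all 9 in E4/Abca1+/- (17.7% of 15083). C5ar1 did not pass the filter on low counts in the Abca1+/+ mice. A call is an adjusted p under 0.05 in edgeR's quasi-likelihood test, with Benjamini-Hochberg adjustment over all genes tested. Their log2 fold changes had medians of 1.94, 1.81, 1.97 and 2.26 in the 4 genotypes in that order, while the median over all genes tested lay between -0.004 and 0.008. In E3/Abca1+/+, 8 of the 9 genes had every injured mouse above every sham mouse of the genotype, as did 4.36% of all genes. The count was 7 in E3/Abca1+/- (6.57% of all genes), 9 in E4/Abca1+/+ (3.76%) and 8 in E4/Abca1+/- (7.36%).

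**Figure D1:**
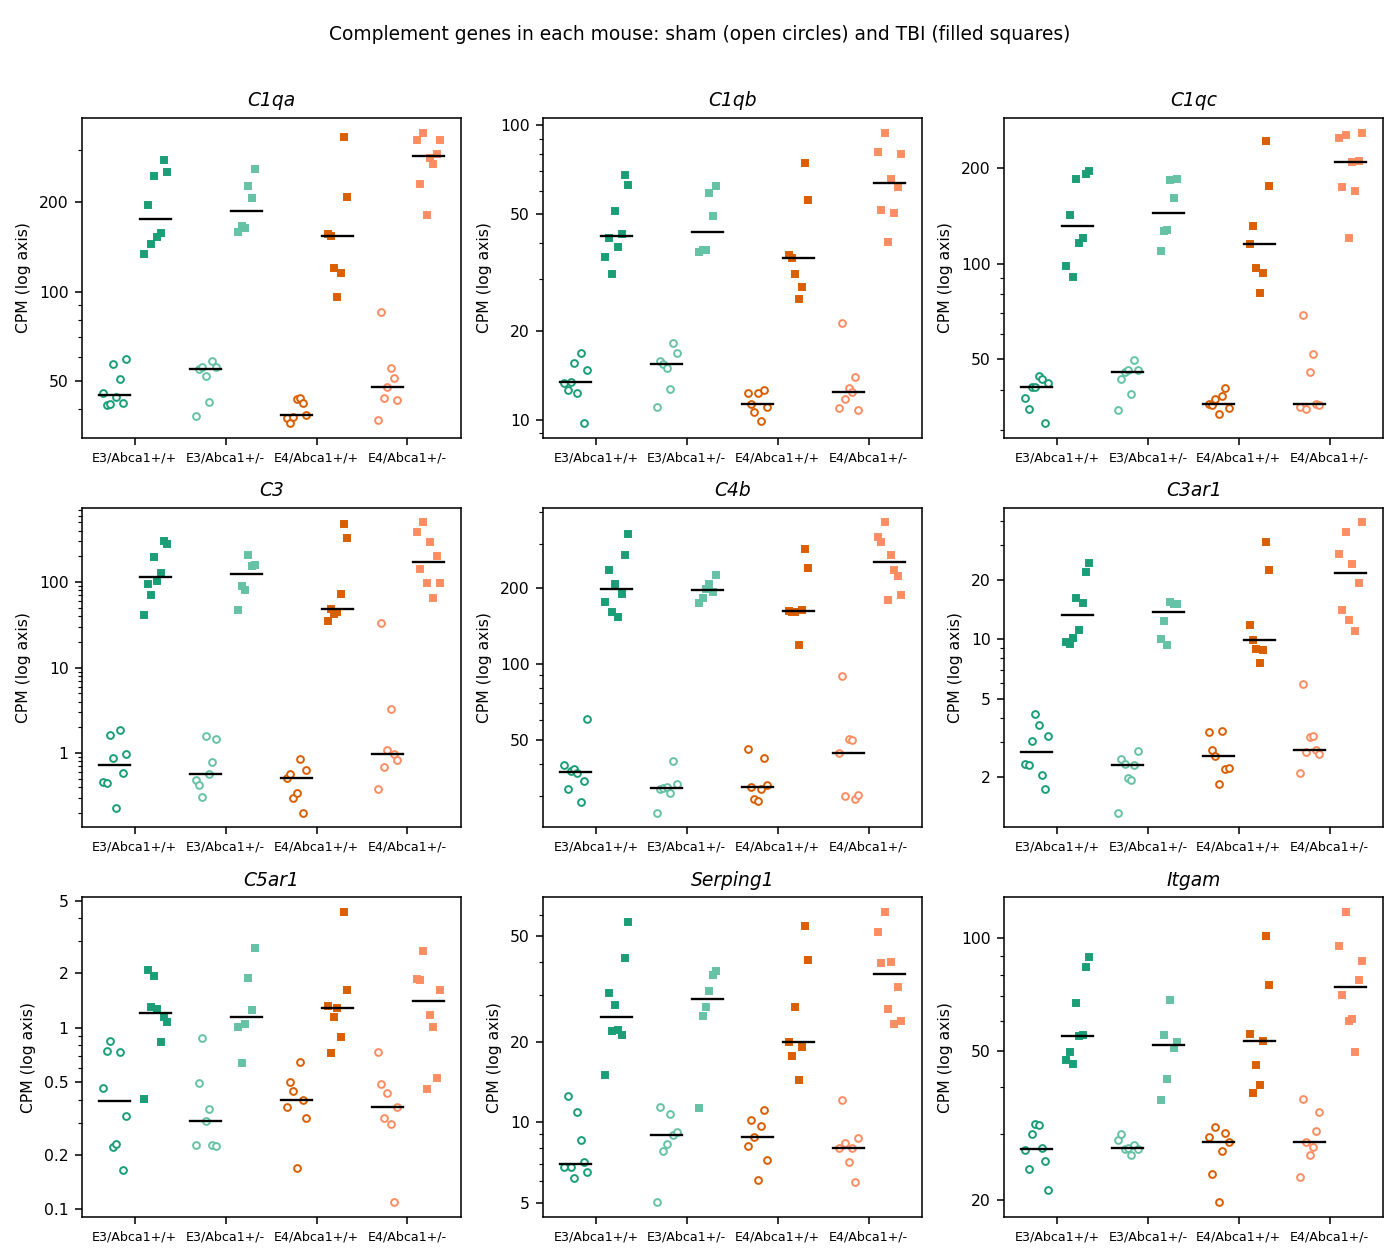
CPM (log axis) of the 9 complement genes in each mouse, by genotype, with sham mice as open circles, injured mice as filled squares and black lines at the group medians. For C1qa the sham mice lie between 35.9 and 85.2 CPM and the injured mice between 96.0 and 345 CPM, and for C5ar1 the groups overlap in 3 of the 4 genotypes.

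C1q is the recognition molecule of the classical pathway, and its chains rose by 3.14 to 5.33-fold. C1qa had a lowest, median and highest value of 41.4, 44.7 and 59.0 CPM in E3/Abca1+/+ sham mice and of 134, 176 and 277 CPM after TBI. In E4/Abca1+/- the same values were 36.8, 47.6 and 85.2 CPM in sham mice and 182, 287 and 345 CPM after TBI. The groups did not overlap in either genotype, nor in the other two, where the highest sham value was 58.1 and the lowest injured value 96.0 CPM. The log2 fold change of C1qa was 2.04 ± 0.15 (SE) in E3/Abca1+/+ (adjusted p = 7.94e-09), 1.96 ± 0.13 in E3/Abca1+/- (3.89e-08), 2.09 ± 0.22 in E4/Abca1+/+ (2.31e-05) and 2.41 ± 0.17 in E4/Abca1+/- (2.42e-07). C1qb, at 9.74 to 21.3 CPM in all sham mice and 25.6 to 94.5 CPM in all injured mice, changed by 1.65 to 2.26 on the log2 scale. C1qc, at 31.5 to 69.0 and 80.6 to 259 CPM, changed by 1.77 to 2.19.

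The chains did not rise by the same amount. Each C1q molecule holds equal numbers of the A, B and C chains, so the ratio of their transcripts was taken in each mouse, per kilobase of exon. The ratio of C1qb to C1qa had a median of 0.276 over sham mice and 0.227 over injured mice, and that of C1qc to C1qa was 0.462 and 0.407. In E3/Abca1+/- the ratio of C1qb to C1qa went from 0.282 to 0.226, a difference of -0.32 on the log2 scale (exact permutation test, two-sided, p = 0.000583 and 0.00466 after adjustment over 8 tests). In E4/Abca1+/-, with the smallest difference, it went from 0.250 to 0.219 (-0.19, exact p = 0.0312 before and after adjustment). Both ratios were lower after TBI in all 4 genotypes, and all 8 exact tests had an adjusted p of 0.0312 or less. With every library thinned to the same depth, 7 of the 8 did.

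C3 is the component on which all pathways of complement meet, and it had the largest change. It was at 0.228 to 1.88 CPM (median 0.729) in E3/Abca1+/+ sham mice, which is 1 to 25 reads, and at 41.6 to 300 CPM (median 116) after TBI. In E3/Abca1+/- it went from 0.307 to 1.60 CPM (median 0.574) to 47.1 to 207 CPM (median 123). E4/Abca1+/+ sham mice had 0.200 to 0.858 CPM (median 0.516), and injured mice of that genotype had 34.7 to 475 CPM with a median of only 48.6. There, replicates 6 and 7 were at 475 and 328 CPM and the other 5 at 34.7 to 72.9 CPM. In E4/Abca1+/- the sham mice were at 0.384 to 33.5 CPM (median 0.984) and the injured mice at 64.7 to 502 CPM (median 173). No injured mouse was as low as any sham mouse, though the lowest injured mouse of all, at 34.7 CPM, was near the sham mouse that stood apart, at 33.5 CPM. The log2 fold change was 7.22 ± 0.50 (SE) in E3/Abca1+/+ (adjusted p = 7.20e-09), 7.42 ± 0.41 in E3/Abca1+/- (9.00e-09), 8.22 ± 0.96 in E4/Abca1+/+ (4.81e-05) and 5.17 ± 0.82 in E4/Abca1+/- (0.000110). Without E4/Abca1+/- sham replicate 2 the last value was 7.52 ± 0.63 (adjusted p = 3.28e-07), so the lower value of this genotype rests on that mouse. Without E4/Abca1+/+ TBI replicate 6 the value of that genotype was 7.60 ± 0.79 (1.02e-05).

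C4b, the C4 of the classical and lectin pathways, rose in all 4 genotypes. In E3/Abca1+/- the sham mice had a lowest, median and highest value of 25.6, 32.1 and 41.2 CPM and the injured mice 175, 196 and 225 CPM. In E4/Abca1+/- the values were 29.1, 44.4 and 89.6 CPM, the highest again being replicate 2, and 179, 254 and 365 CPM after TBI. The lowest injured mouse of any genotype, at 119 CPM, was above every sham mouse. C4b differed on the log2 scale by 2.49 ± 0.16 (SE) in E3/Abca1+/+ (adjusted p = 2.73e-09), 2.61 ± 0.09 in E3/Abca1+/- (2.43e-11), 2.39 ± 0.17 in E4/Abca1+/+ (1.05e-06) and 2.47 ± 0.24 in E4/Abca1+/- (1.18e-06). The share of C4a in C4b had a group median of 4.12 to 5.98% in sham mice and of 1.33 to 1.98% after TBI.

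C3ar1, the receptor of C3a, rose in all 4 genotypes with 11 to 146 reads per sham library. Sham mice of all genotypes were at 1.32 to 5.95 CPM and injured mice at 7.60 to 39.3 CPM. In E4/Abca1+/- the lowest, median and highest values were 2.10, 2.73 and 5.95 CPM in sham mice. After TBI the median there was 21.7 and the highest value 39.3 CPM, and the groups did not overlap in any genotype. C3ar1 differed on the log2 scale by 2.47 ± 0.23 (SE) in E3/Abca1+/+ (adjusted p = 1.66e-07), 2.59 ± 0.16 in E3/Abca1+/- (3.82e-08), 2.41 ± 0.33 in E4/Abca1+/+ (0.000133) and 2.79 ± 0.30 in E4/Abca1+/- (3.16e-06).

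C5ar1, the receptor of C5a, was the least abundant of the genes per length after TBI and is read from few counts. Sham mice were at 0.109 to 0.879 CPM, from 1 to 21 reads, and injured mice at 0.408 to 4.34 CPM, from 3 to 60 reads. Of the 29 injured mice 23 were above every sham mouse, and the groups overlapped in every genotype but E4/Abca1+/+. C5ar1 differed on the log2 scale by 1.81 ± 0.38 (SE) in E3/Abca1+/- (adjusted p = 0.00218) and 1.77 ± 0.36 in E4/Abca1+/- (0.000987). With no filter on low counts it was 1.14 ± 0.36 in E3/Abca1+/+ (adjusted p = 0.0265) and 1.89 ± 0.40 in E4/Abca1+/+ (0.00401).

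Itgam, the alpha chain of complement receptor 3, rose by 1.81 to 2.55-fold. The lowest, median and highest values were 26.4, 27.6 and 30.1 CPM in E3/Abca1+/- sham mice and 37.1, 51.8 and 68.3 CPM after TBI. In E4/Abca1+/- they were 23.1, 28.6 and 37.3 CPM in sham mice and 49.7, 74.1 and 118 CPM after TBI. The groups did not overlap within any genotype, and 28 of the 29 injured mice were above every sham mouse of all genotypes. The log2 fold change was 1.17 ± 0.13 (SE) in E3/Abca1+/+ (adjusted p = 1.71e-06), 0.86 ± 0.10 in E3/Abca1+/- (1.48e-05), 1.10 ± 0.19 in E4/Abca1+/+ (0.000767) and 1.35 ± 0.16 in E4/Abca1+/- (6.42e-06).

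Serping1, the inhibitor of the initiating proteases, rose with the components it restrains. Its lowest, median and highest values were 6.17, 6.96 and 12.6 CPM in E3/Abca1+/+ sham mice and 15.0, 24.9 and 56.5 CPM after TBI. In E3/Abca1+/- the lowest injured mouse, at 11.3 CPM, was below the highest sham mouse, at 11.4 CPM, while the other 5 injured mice were above every sham mouse. In the remaining genotypes sham and injured mice did not overlap. Serping1 differed on the log2 scale by 1.82 ± 0.24 (SE) in E3/Abca1+/+ (adjusted p = 9.10e-06), 1.66 ± 0.23 in E3/Abca1+/- (5.36e-05), 1.63 ± 0.26 in E4/Abca1+/+ (0.000525) and 2.13 ± 0.21 in E4/Abca1+/- (1.64e-06).

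Fewer than all of the other genes of the complement system were called. Of 47 such genes listed, 26 had a row in the table analysed here. Called higher were 10 of 23 tested in E3/Abca1+/+, 11 of 26 in E3/Abca1+/-, 9 of 22 in E4/Abca1+/+ and 12 of 25 in E4/Abca1+/-, and 1, 0, 1 and 3 were called lower. Over all genes 1534 of 14093, 1508 of 15026, 684 of 14041 and 2469 of 15083 were called lower, so lower calls were no more frequent in this list. The median log2 fold change of the list was 0.40, 0.44, 0.31 and 0.44. Of these, 8 genes were called higher in all 4 genotypes, and 7 of them are described by role. Itgax, the alpha chain of complement receptor 4, changed by 3.23 to 4.28 on the log2 scale, and Itgb2, the beta chain that it shares with Itgam, by 1.72 to 2.29. C1s1 and C1ra, the proteases that C1q carries, changed by 1.94 to 2.74 and by 0.89 to 2.01. Clu, an inhibitor of the terminal complex, changed by 0.72 to 0.96, C4a by 0.61 to 1.08, and the membrane collectin Colec12 by 0.61 to 0.82. Csmd2, a membrane protein of the family that inhibits complement, was called lower in 2 genotypes (-0.26 in E4/Abca1+/+, -0.32 in E4/Abca1+/-), as was Susd4 (-0.15 in E3/Abca1+/+, -0.18 in E4/Abca1+/-). A further 11 genes were called in no genotype.

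**Figure D2:**
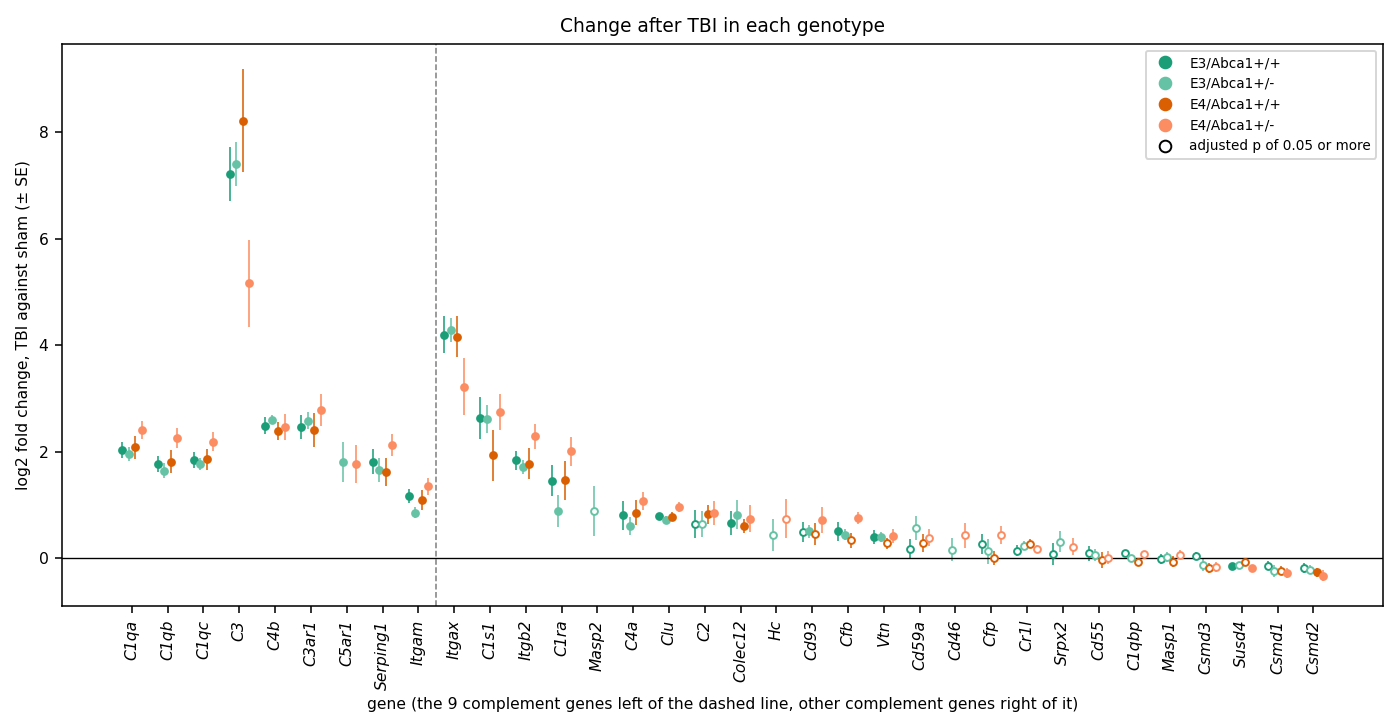
Log2 fold change of TBI against sham with its standard error for the 9 complement genes and for 25 other complement genes, in 4 genotypes, with open circles where the adjusted p was 0.05 or more. C3 stands above all others, and its lower value in E4/Abca1+/- (5.17) becomes 7.52 without a single sham mouse.

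Markers of the cells known to make complement moved in the same comparisons. All 10 genes of the microglia list were called higher in each genotype, with medians of 0.83 to 1.02 on the log2 scale, and their summed level was 363 to 547 CPM in sham and 637 to 1284 CPM in injured mice. Of 8 astrocyte genes 6, 6, 7 and 7 were called higher in E3/Abca1+/+, E3/Abca1+/-, E4/Abca1+/+ and E4/Abca1+/-, with medians of 0.50 to 0.60. Of 8 genes of infiltrating monocytes and border macrophages 3 or 4 were called higher, and their summed level went from 7.60 to 69.0 CPM in sham mice to 60.9 to 691 CPM. Neutrophil genes (2 of 5 in the table) were at a summed 0 to 1.07 CPM in sham and 0.289 to 17.9 CPM in injured mice, and 1 lymphocyte gene of 6 was in the table and tested in no genotype. Between 3 and 6 of 6 neuronal genes were called lower, 1 to 4 of 5 meningeal fibroblast genes higher, 0 to 3 of 5 oligodendrocyte genes and 0 or 1 of 4 endothelial genes higher. Of the hippocampal list at most 1 of 6 genes was called higher and at most 2 lower, 1 choroid plexus gene of 2 tested was called higher in E3/Abca1+/+ and none elsewhere, and none of 4 liver genes was in the table. The part of these cells in the complement values was not tested.

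Most of the genes rose by more than the mean of the 10 genes of the microglia list. Other microglial genes were not used as a reference. The value of each gene was taken relative to the microglia list in the same mouse, as log2(CPM + 1) minus the mean of log2(CPM + 1) over the 10 genes. The list itself was higher by 0.84 in E3/Abca1+/+, 0.74 in E3/Abca1+/-, 0.79 in E4/Abca1+/+ and 1.01 in E4/Abca1+/- after TBI (exact permutation test, two-sided, p = 0.000155 to 0.000583, the smallest these group sizes allow). Relative to it C1qa was higher by 1.14 to 1.42, C1qb by 0.83 to 1.18, C1qc by 0.94 to 1.19, C3 by 4.85 to 5.29, C4b by 1.52 to 1.83, C3ar1 by 1.14 to 1.40 and Serping1 by 0.64 to 0.97, in all 4 genotypes (largest exact adjusted p over the 36 tests of the family, 0.0145, for Serping1). The lowest C3 value, 4.85, was that of E4/Abca1+/-. Without E4/Abca1+/- sham replicate 2, the values in that genotype were 5.40 for C3, 1.66 for C4b, 1.52 for C1qa and 1.50 for C3ar1. Itgam was higher in 2 genotypes only, by 0.27 in E3/Abca1+/+ and 0.30 in E4/Abca1+/- (exact adjusted p = 0.00739 and 0.0194), with 0.08 and 0.23 in the others, a difference between genotypes that was not tested, and with the median of the list in place of its mean it was higher in all 4. C5ar1 lay between -0.29 and 0.03 and passed the test in no genotype. That value depends on the pseudocount for so low a gene: with 0.1 in place of 1 it was 0.42 to 0.86, called in 2 genotypes. The values of C3 and C3ar1, low in sham mice, depend on it too, and were 5.61 to 6.48 and 1.43 to 1.76 with 0.1.

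**Figure D3:**
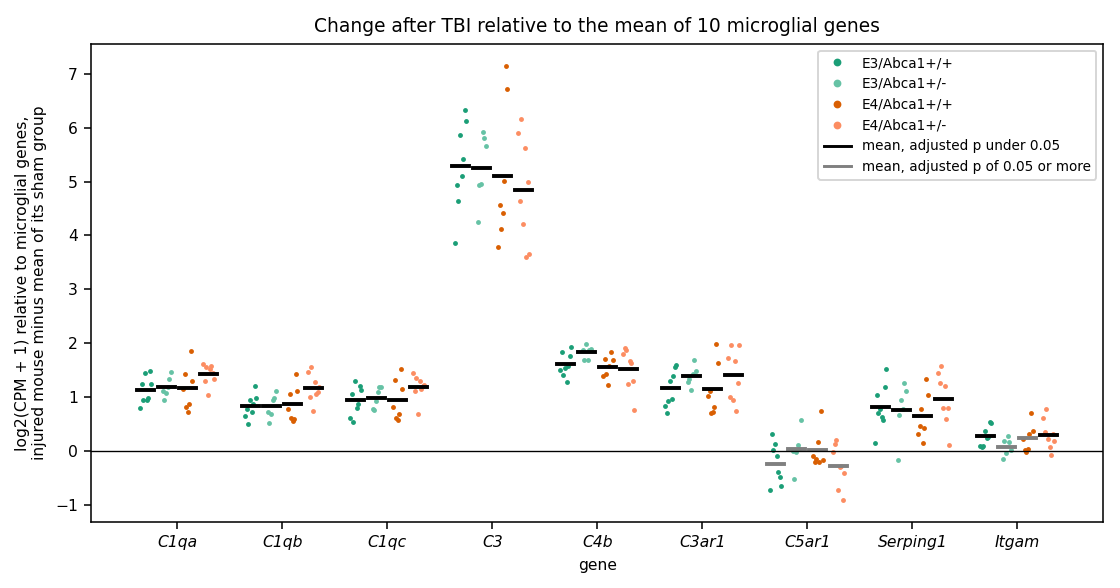
For each injured mouse (points) of 4 genotypes, log2(CPM + 1) of a gene relative to the mean of 10 microglial genes, minus the mean of the sham mice of its genotype; lines are group means, black where the exact permutation test had an adjusted p under 0.05. The means of C3 lie at 4.85 to 5.29, those of Itgam at 0.08 to 0.30, and 0 marks a change equal to that of the microglial genes. The C3 mean of E4/Abca1+/- is 4.85 and becomes 5.40 without E4/Abca1+/- sham replicate 2.

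The genotypes were then compared within injury status, which asks whether APOE isoform or Abca1 copy number changed the level of complement. No complement gene was called in any of the 8 comparisons with edgeR. For Abca1+/- against Abca1+/+, called genes made up 2.51% of all genes in sham and 0.180% in injured mice with APOE3, and 0.990% in sham and 1.47% in injured mice with APOE4. In that order, 0, 0, 2 and 4 complement genes had an unadjusted p under 0.05. The share of all genes at this unadjusted threshold is not given, for these or the later counts. The complement genes also varied together (below), so such counts are not of independent results. Without E4/Abca1+/- sham replicate 2 the count for APOE4 sham mice was 1 of 7 tested. DESeq2's Wald test called none in 6 of the 8 comparisons. For APOE4 against APOE3, 0.346% of all genes were called in Abca1+/+ sham mice, 0.207% in injured Abca1+/+ mice, 5.27% in Abca1+/- sham mice and 2.87% in injured Abca1+/- mice, and 2, 0, 3 and 6 complement genes had an unadjusted p under 0.05. Here the count for Abca1+/- sham mice was 2 without E4/Abca1+/- sham replicate 2.

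The lowest p-values were in the comparisons of injured E4/Abca1+/- mice, which had the highest mean of all groups for 8 of the 9 genes. Against injured E4/Abca1+/+ mice, C1qa was 182 to 345 CPM (median 287) compared with 96.0 to 333 CPM (median 154), ranges that overlap. C1qa differed by 0.72 ± 0.21 on the log2 scale (SE, adjusted p = 0.0911), and the difference was 0.67 ± 0.22 for C1qb (0.117), 0.61 ± 0.21 for C1qc (0.138) and 0.48 ± 0.18 for C4b (0.154). Among injured E4/Abca1+/+ mice replicate 6 (female) was the highest for all 9 genes, and its summed list of infiltrating monocytes and border macrophages was 581 CPM against 70.5 to 330.3 CPM in the others. Its other lists stood apart too, with choroid plexus at 1757 CPM (others 9.60 to 645) and neurons at 6008 CPM (others 6405 to 7674). Without replicate 6 these 4 genes were called, C1qa with 0.97 ± 0.16 (adjusted p = 0.00937), C1qb with 0.86 (0.0260), C1qc with 0.81 (0.0251) and C4b with 0.62 (0.0417), and in none of the fits that left out another of the 15 mice was any of them called. In a single fit over all 58 mice C1qa, C1qb and C1qc were called, and with DESeq2's Wald test C1qa alone. Over all genes the main fit called 218 of 14854 and the fit without replicate 6 called 805 of 14943. The single fit called 1359 of 15171 and the Wald test 729 of 14854. The microglia list moved with these complement genes (1 of 10 genes called, median 0.31), and its part was not tested.

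Against injured E3/Abca1+/- mice, 6 genes were higher in injured E4/Abca1+/- mice at an unadjusted p under 0.05 and none after adjustment. C1qa, at 160 to 260 CPM (median 187) in the APOE3 mice, differed by 0.49 ± 0.14 (SE, adjusted p = 0.0654), Itgam by 0.58 ± 0.17 (0.0776), C3ar1 by 0.80 ± 0.27 (0.115), C4b by 0.39 ± 0.14 (0.132), C1qc by 0.45 ± 0.16 (0.137) and C1qb by 0.46 ± 0.18 (0.173). The values of the APOE groups overlapped for each of these genes. C1qa and Itgam were called with sex as a covariate (adjusted p = 0.0400 and 0.0491) and with DESeq2's Wald test (0.0109 and 0.0159), and C3ar1 and Itgam in the single fit over 58 mice. Over all genes these fits called 566 of 15121, 909 of 15121 and 899 of 15171, where the main fit called 434 of 15121. Of the microglia list 2 of 10 genes were called, with a median of 0.28. Both comparisons share the injured E4/Abca1+/- group, so they are not independent.

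Among sham mice the lowest adjusted p of the complement genes was in the group with the mouse that stood apart. C3 differed by 3.61 ± 1.18 between E4/Abca1+/- and E4/Abca1+/+ (edgeR adjusted p = 0.146) and by 3.00 ± 0.96 between E4/Abca1+/- and E3/Abca1+/- (0.0740). Without replicate 2 the latter was 0.68 ± 0.47 (0.445), and in the former C3 did not pass the filter on low counts. In Abca1+/+ sham mice C1qa and C1qb were lower with APOE4, by 0.26 and 0.23 on the log2 scale (adjusted p = 0.258 and 0.507).

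Tests of the interactions, which compare the effects themselves, called no complement gene. Abca1 by injury called 0% of all genes in APOE3 and 0% in APOE4 mice, and isoform by injury 0% in Abca1+/+ and 0% in Abca1+/- mice, with edgeR. Isoform by Abca1 among injured mice called 0.00661% of all genes, a single gene. At an unadjusted p under 0.05 were 0 complement genes for Abca1 by injury in either isoform, 0 and 3 for isoform by injury in Abca1+/+ and Abca1+/- mice, and 5 for isoform by Abca1 in injured mice (C1qa, C1qb, C4b, C3ar1 and Itgam, estimates 0.61 to 0.89, adjusted p 0.403 to 0.483). Without E4/Abca1+/- sham replicate 2 the count was 1 for Abca1 by injury in APOE4 mice and 4 for isoform by injury in Abca1+/- mice. DESeq2's Wald test called none of the complement genes in these 5 tests either.

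Ordering the 8 group means of each gene gave one step between neighbours that exceeded the spread. For all 9 genes the 4 TBI groups stood above the 4 sham groups. Of 63 pairs of neighbours in these orders, 9 differed by the exact permutation test, and these 9 were the pairs of the lowest TBI group and the highest sham group (largest adjusted p = 0.0218, for C5ar1). None of the 54 pairs within TBI or within sham groups did (3 with an unadjusted p under 0.05, smallest adjusted p = 0.0725, for C1qa). The order came from the same values and only neighbours were tested. Groups farther apart in it were not compared here, so this cannot show that genotypes do not differ.

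Among injured mice of the same group, a mouse that was high for one complement gene was high for the others. Values were taken as log2(CPM + 1) minus the group mean, and 36 pairs of genes were correlated over the 29 injured mice. Pearson's r was 0.56 to 0.97 and all 36 pairs had an adjusted permutation p under 0.05, for r and for Spearman's rho. Pairs of genes outside complement were not tested in this way, and sex was not removed from the values. Lists of several cell types correlated with these genes too (below), so the result is not shown to be particular to complement. C1qa and C1qc had r = 0.97 and rho = 0.97 (permutation p = 1e-05 for each, the smallest 100000 resamples can give, adjusted 1.64e-05 and 2.25e-05), and leaving out the 2 mice with the most extreme C1qa left r at 0.97. C3 and Serping1 had r = 0.88 and rho = 0.86 (permutation p = 1e-05 for each, adjusted 1.64e-05 and 2.25e-05), and r = 0.84 without 2 mice. The lowest was that of C3ar1 and C5ar1, with r = 0.56 and rho = 0.51 (permutation p = 0.00406 and 0.00764, the same after adjustment), and r = 0.52 without 2 mice. Within the 15 injured Abca1+/+ mice r ranged from 0.51 to 0.98 and within the 14 injured Abca1+/- mice, whose libraries were deeper, from 0.30 (C4b and C3ar1) to 0.96. Without E4/Abca1+/- TBI replicate 8 that pair had r = 0.69 in the 13 remaining Abca1+/- mice, whose lowest r was 0.57. Leaving out E4/Abca1+/+ TBI replicate 6 gave r of 0.41 to 0.97 over the 28 others, with all 36 pairs under 0.05 for r and 35 for rho.

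In sham mice fewer pairs passed the test. Over 29 mice 14 of 36 pairs had an adjusted permutation p under 0.05 for r (12 for rho), and over 28 mice, without E4/Abca1+/- replicate 2, it was 6 (5 for rho). These were the 3 pairs of C1q chains (r = 0.62 to 0.74), C3ar1 with C1qa and with C1qc (0.53 and 0.62), and C4b with C1qc (0.56). Within Abca1+/+ sham mice these 6 pairs had r of 0.28 to 0.58, and within Abca1+/- sham mice 0.66 to 0.89. The difference between injured and sham mice was not tested, and several of the genes are at low counts in sham mice.

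**Figure D4:**
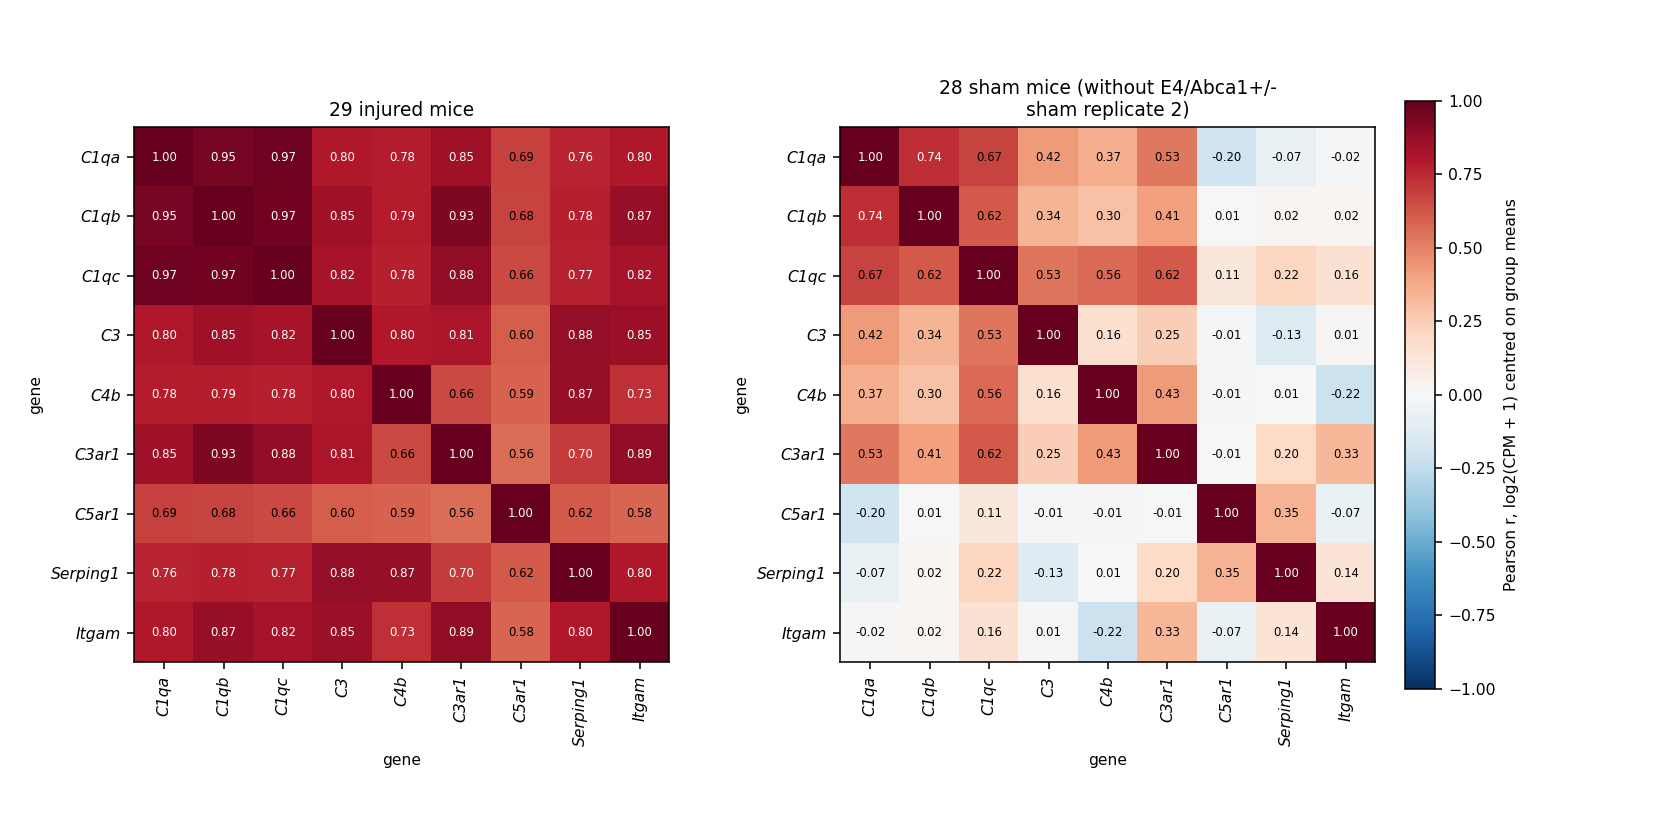
Pearson's r of each pair of complement genes over 29 injured mice (left) and 28 sham mice (right, without E4/Abca1+/- replicate 2), on log2(CPM + 1) centred on group means, from -1 (blue) to 1 (red). All injured values are 0.56 or more, and the sham values range from -0.22 to 0.74.

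The genes closest to each complement gene differed. These correlations are a description over 29 injured mice and 14512 genes, which share library, depth and cell content, and no p is given. C1qa was nearest to C1qc (r = 0.97), Ctsz (0.96), a lysosomal protease, and Trem2 (0.95), a microglial receptor. C1qb was nearest to C1qc (0.97), Tyrobp (0.96), the adaptor of Trem2, and Ctsb (0.96), and C1qc to C1qa (0.97), Trem2 (0.97) and C1qb (0.97). C3ar1 and Itgam shared Mpeg1 (0.97 and 0.95) and Cd84 (0.96 and 0.94), both genes of macrophages, and C3ar1 also lay beside Ppp1r18 (0.96). C3 lay beside Steap4 (0.98), Lcn2 (0.98) and Lyz2 (0.96), of which Lcn2 is known in reactive astrocytes and Lyz2 in myeloid cells. C4b lay beside Fxyd1 (0.91), Clu (0.90) and Add3 (0.90), of which Clu is an astrocyte product. C5ar1 was nearest to Il1b (0.85), an inflammatory cytokine, Clec4d (0.82) and Slfn4 (0.80), genes of myeloid cells, and Serping1 to Cyp1b1 (0.93), Anxa2 (0.93) and Serpinf1 (0.92).

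With the marker lists the same measure gave r = 0.84 to 0.91 between microglia and C1qa, C1qb, C1qc, C3ar1 and Itgam, and 0.58 to 0.74 for C3, C4b, C5ar1 and Serping1. That split rests on E4/Abca1+/- TBI replicate 8, since without this mouse r was 0.86 for C3, 0.82 for C4b and 0.86 for Serping1, beside 0.86 for C1qa, and only C5ar1 stayed lower, at 0.58. Serping1 and C3 were at 0.92 and 0.88 with the list of infiltrating monocytes and border macrophages, and C5ar1 was at 0.78 with the 2 neutrophil genes. The fibroblast list was at 0.70 with Serping1, 0.54 with C4b and 0.51 with C3, and at 0.13 to 0.30 with the other 6 genes. Without replicate 8 it was at 0.72 with Serping1, 0.49 with C4b and 0.51 with C3, and at 0.27 to 0.43 with the other 6. Correlations with the neuron list were negative for all 9 genes (-0.83 to -0.36). The lists separated the genes little. Without replicate 8 the list of infiltrating monocytes and border macrophages was at 0.87 with C3, 0.86 with C3ar1 and 0.85 with C1qb and Itgam. The neutrophil genes were then at 0.82 with C5ar1 and 0.78 with C1qb, and the astrocyte list was at 0.625 (C5ar1) to 0.88 (Serping1). Some of these lists hold genes made by other cells too, and differences between the r values were not tested.

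Females and males were compared over all 58 mice with the 8 groups as covariates. C3ar1 was higher in females by 0.40 ± 0.13 (SE) on the log2 scale (edgeR adjusted p = 0.0402) and Itgam by 0.27 ± 0.07 (0.0143), where 10.1% of all genes were called. Another 5 genes were higher at an unadjusted p under 0.05 only, C3 by 0.71 ± 0.33 (adjusted p = 0.153), C1qb by 0.25 ± 0.09 (0.0531), C1qa by 0.19 ± 0.09 (0.161), C1qc by 0.18 ± 0.09 (0.172) and Serping1 by 0.25 ± 0.13 (0.189). Without the male sham mouse E4/Abca1+/- replicate 2, C3 (1.09 ± 0.25, adjusted p = 0.00340), C1qb and C1qa were called too, 5 genes in all. After thinning all mice to the lowest depth C3 was called as well (0.96, adjusted p = 0.0257), 3 genes in all. Without E4/Abca1+/+ TBI replicate 6 or without E4/Abca1+/- TBI replicate 8, both females, Itgam alone was called. Over all genes 2083 of 15171 were called without the male sham mouse and 1141 of 14130 after thinning. Without E4/Abca1+/+ TBI replicate 6 it was 1022 of 15170, and without E4/Abca1+/- TBI replicate 8 it was 1787 of 15171.

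The values are also given by sex and injury. Among injured mice C3 was 72.9 to 502 CPM (median 182) in 14 females and 34.7 to 384 CPM (median 70.3) in 15 males, and among sham mice it was 0.200 to 1.88 (median 0.844) and 0.299 to 33.5 CPM (median 0.489). Itgam was 50.8 to 118 CPM (median 71.6) in injured females and 37.1 to 95.6 CPM (median 49.7) in injured males, beside 28.3 and 27.4 CPM as sham medians. The sexes overlapped for each gene. A larger change after TBI in females was estimated for all 9 genes, with 9 unadjusted p under 0.05 but no adjusted p under 0.316, and 0% of all genes were called in this interaction. The 9 genes varied together among injured mice, so these are not 9 independent results. The share of all genes at the unadjusted threshold is not given. The estimate for C3 was 3.23 ± 0.86 and fell to 1.03 ± 0.91 without the male sham mouse, when 5 genes kept an unadjusted p under 0.05. In injured mice the summed list of infiltrating monocytes and border macrophages had a median of 289 CPM in females and 97.7 CPM in males, and the microglia list 952 and 757 CPM, while median total counts were 11199194 and 16177983. The part of these in the sex difference was not tested.

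**Figure D5:**
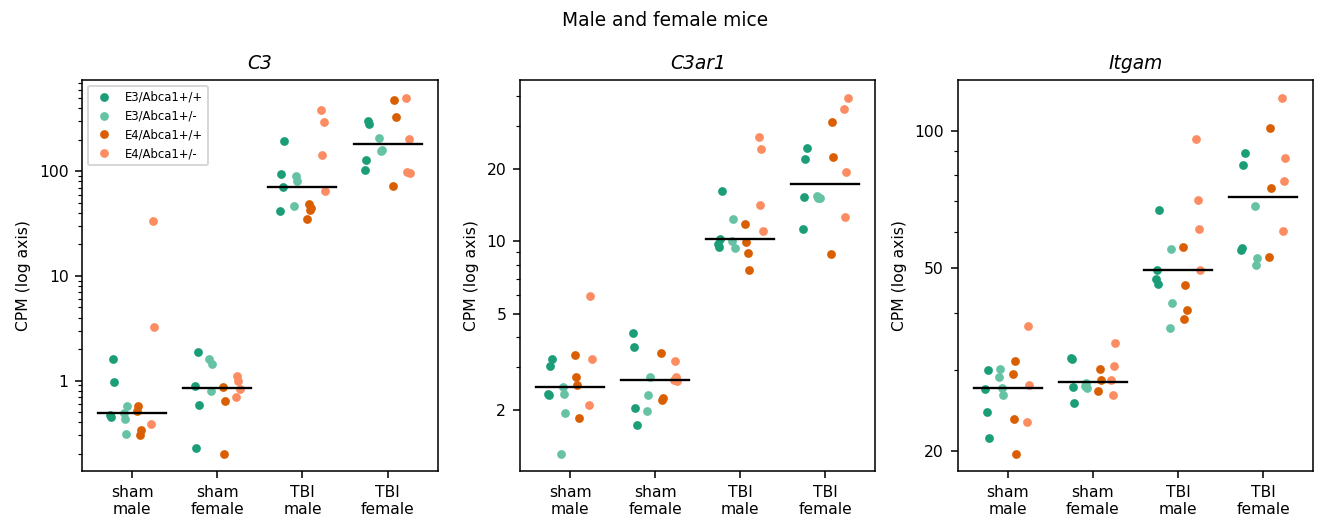
CPM (log axis) of C3, C3ar1 and Itgam in each mouse by injury and sex, coloured by genotype, with black lines at the medians. The C3 medians of injured mice are 182 CPM in females and 70.3 CPM in males, and the male sham mouse at 33.5 CPM stands apart.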

How the data were processed

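RNA of cortex and hippocampus was sequenced from 58 mice. Per the labels and the paper's methods, the authors mapped reads to mm10 with Subread (1.5.0 in the submitters' processing notes), counted them per gene with featureCounts and deposited the table of counts used here; whether strand was used is not given in the sources used here, so overlapping genes cannot be told apart. The table held 15171 genes after 2 rows without an Entrez identifier were removed. The 23 symbols stored as dates were replaced by the RefSeq symbol of their Entrez identifier where it had one. No 2 mice had identical counts. Each mouse is a replicate.

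CPM was computed from the counts, over totals adjusted by TMM factors taken from all 58 mice. Groups were compared with edgeR 4.0.16 (R 4.3.3): TMM factors (0.954 to 1.04), filterByExpr, quasi-likelihood test, Benjamini-Hochberg over all genes, threshold 0.05; the standard error is the fold change over the root of F. Single values used exact permutation tests, and correlations 100000 permutations within groups (scipy 1.17.1). The scripts were tested on simulated data. Alternatives were DESeq2 1.42.0 (size factors, Wald test), other filters, thinning to the lowest total, a term for sex, 1 fit of all 58 mice together, and leaving out mice, of which E4/Abca1+/- sham replicate 2, E4/Abca1+/- TBI replicate 8 and E4/Abca1+/+ TBI replicate 6 were chosen after seeing the data. CPM of the lists was summed per mouse. Named are the 9 genes, other complement genes called one way in all 4 genotypes or lower in 2, and the 3 nearest genes by r among those with at least 1 CPM. The genes and lists were chosen with earlier results of these data known. Of the genes this rule names, 2 are not reported here.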

Additional observations from a re-analysis of the deposited data

Results flagged for a closer look

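In 72 sets of a gene in a group, the highest or lowest mouse lay far from the others of its group (Dixon's test at 95%) in 8, where chance gives about 1 in 20 sets. In 5 of them the mouse was E4/Abca1+/- sham replicate 2, with C1qa at 85.2 CPM, C1qb at 21.3, C3 at 33.5, C4b at 89.6 and C3ar1 at 5.95, each the highest of its group. The same mouse was the highest of its group for the summed lists of microglia (547 CPM, others 387 to 471) and of infiltrating monocytes and border macrophages (69.0 CPM, others 15.1 to 23.5). The remaining sets were C4b in E3/Abca1+/+ sham replicate 8 (60.4 CPM), C5ar1 in E3/Abca1+/- sham replicate 3 (0.879 CPM) and C5ar1 in E4/Abca1+/+ TBI replicate 6 (4.34 CPM).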

How the results depend on the processing

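All complement genes tested stayed higher after TBI, past the threshold, under every alternative run in the 4 genotypes. Leaving out each of the 15 mice of E4/Abca1+/- in turn gave log2 fold changes of 4.88 to 7.52 for C3, 2.34 to 2.57 for C1qa, 2.38 to 2.71 for C4b and 2.62 to 3.01 for C3ar1, each past the threshold.

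For Abca1+/- against Abca1+/+ in injured APOE4 mice, with 0 complement genes called, DESeq2's Wald test called 1, the single fit over 58 mice 3, and leaving out each mouse 0 to 4, the 4 only without E4/Abca1+/+ TBI replicate 6. For APOE4 against APOE3 the single fit called 1 gene in Abca1+/- sham mice (C3, adjusted p = 0.0495), and in injured Abca1+/- mice the single fit, the sex covariate and DESeq2's Wald test called 2 each. For females against males (2 called) DESeq2's Wald test called 1, thinning 3, and leaving out each of the 3 mice named after seeing the data 1 to 5. The causes were not tested. No result reversed. No paired analysis was possible because the labels give no replicate numbers shared between groups.

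Over all genes, counts of calls moved by more than 1.5 times with thinning in E3/Abca1+/- TBI against sham (3515 to 2107). For Abca1 they ranged from 173 to 726 (main 366) in APOE3 sham, 11 to 162 (27) in APOE3 TBI, 66 to 434 (146) in APOE4 sham and 40 to 1359 (218) in APOE4 TBI mice, the last being 805 without E4/Abca1+/+ TBI replicate 6. For isoform they ranged from 26 to 109 (49) and 18 to 91 (29) in Abca1+/+ sham and TBI mice, and from 202 to 1370 (787) and 184 to 909 (434) in Abca1+/- sham and TBI mice. For isoform by Abca1 they were 0 to 67 (1), and for sex 1022 without E4/Abca1+/+ TBI replicate 6 (1539).

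Depth limits C3 in sham mice and C5ar1 in all mice, which rest on few reads in the shallow Abca1+/+ libraries. The Abca1 comparisons are also comparisons of depth. Thinned counts even out the number of reads only, and cannot set Abca1 apart from other differences between these libraries.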
